A study of Mus musculus with 8 samples.

Results

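The proteasome genes were taken from the expression table by symbol. The rule accepted every symbol that begins with Psma, Psmb, Psmc, Psmd, Psme, Psmf or Psmg followed by a digit, and left out the 4 symbols that end in -ps, with or without a number, which are pseudogenes. It found 50 of the 53247 genes listed. The members include 5 immunoproteasome genes (Psmb8, Psmb9, Psmb10, Psme1 and Psme2), 31 constitutive subunits, 2 other activators, 8 assembly chaperones or inhibitors and 2 subunits known from testis and thymus. The symbol rule also took 2 other genes, Psme2b, a close copy of Psme2, and Psmc3ip, which is not a subunit. Of the 50 genes, 49 passed the filter on low values and were tested.

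The proteasome degrades proteins marked with ubiquitin. Its 20S core is a barrel of stacked α and β rings, and its 19S cap recognises, unfolds and feeds in the substrate. The catalytic subunits of the constitutive core are β5 (Psmb5), β1 (Psmb6) and β2 (Psmb7). IFN-γ induces replacements for them, LMP7 (Psmb8), LMP2 (Psmb9) and MECL-1 (Psmb10), and the activator PA28αβ (Psme1 and Psme2), which together form the immunoproteasome and favour peptides that fit MHC class I. Macrophages carry both forms.

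Tumor-associated macrophages (TAMs) were sorted by flow cytometry as CD45+, CD11b+, MHCII+, F4/80+ cells from LLC (Lewis lung carcinoma, a mouse cell line) tumors that had grown s.c. for 14 days in C57/BL6 mice given as 10 weeks old. There were 4 samples from WT mice and 4 from miR-21 null mice, and no other treatment. The miR-21 null mice carry a germline deletion in all cells (Mir21atm1Yoli), so the deletion is not particular to macrophages, while the LLC cells come from outside the host. Whether miR-21 null replicate 1, whose title gives 2 numbers, was pooled is not stated. The samples are labelled biological replicates, with no word on how many mice gave each.

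The values are CPM, the counts per 1e+06 reads of a library, listed with 0.0001 added. Depth, estimated from the smallest step between low values, was 20.2 to 33.4 in units of 1e+06 reads, so the least abundant of the 5 immunoproteasome genes, Psme2, rested on about 608 reads or more in every sample. Mir21a, the targeted gene, was listed at 0.0001 CPM in all 8 samples, so it could not check the labels. All 9 macrophage markers examined were expressed, and their summed level was 11630 to 13980 CPM in the WT samples and 10140 to 14340 CPM in the miR-21 null samples. Csf1r and Adgre1 (F4/80) were lower in miR-21 null TAMs, with log2 fold changes of -0.48 and -0.38, and Fcgr1 was higher, with 0.75.

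The question asked of these genes was whether WT and miR-21 null TAMs differ in the inducible and in the constitutive proteasome. Genes were compared with limma on log2(CPM + 1) over 13850 genes. The threshold of the study was a Benjamini-Hochberg adjusted p of at most 0.005 with a fold change over 1.5, which is 0.585 on the log2 scale. A looser limit, an adjusted p of at most 0.05 with no fold limit, was used beside it.

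The 3 inducible catalytic subunits were all higher in miR-21 null TAMs, and all 3 passed the threshold of the study. Psmb8 (chr17:34197721-34201455, plus strand, GRCm38) read 114, 115, 123 and 152 CPM in WT replicates 1 to 4 and 198, 203, 181 and 211 CPM in miR-21 null replicates 1 to 4. The groups did not overlap, and WT replicate 4 lay nearest to the miR-21 null samples. The log2 fold change of Psmb8 was 0.66 ± 0.09 (SE, n = 4 per group, adjusted p = 0.000638), or 1.58-fold. In sorted bulk samples a larger share of cells with high expression cannot be told apart from more RNA per cell.

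Psmb9 (chr17:34181988-34187765, minus strand) read 51.0, 53.0, 54.3 and 77.5 CPM in the WT samples and 102, 104, 90.1 and 109 CPM in the miR-21 null samples. WT replicate 4 stood well above the other WT samples and still under every miR-21 null sample. The log2 fold change of Psmb9 was 0.79 ± 0.12 (SE, n = 4 per group, adjusted p = 0.00110). Leaving out WT replicate 4 raised it to 0.92. With no filter Psmb9 missed the threshold of the study (adjusted p = 0.00814).

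Psmb10 (chr8:105935735-105938445, minus strand) read 46.3, 45.9, 50.1 and 54.3 CPM in WT samples and 73.2, 79.8, 69.1 and 76.2 CPM in miR-21 null samples. These groups were far apart for their small spread. The log2 fold change of Psmb10 was 0.59 ± 0.07 (SE, n = 4 per group, adjusted p = 0.000232), only just over the fold limit. It fell under that limit, to 0.56 to 0.58, without WT replicate 1, WT replicate 2, miR-21 null replicate 2 or miR-21 null replicate 4, with an adjusted p of at most 0.00109 in each case. With a pseudocount of 10 it was 0.52, also under the limit.

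Psme1 and Psme2 encode the α and β subunits of PA28, the ring that opens the core without ubiquitin or ATP. Psme1 (chr14:55578123-55581530, plus strand) read 119.5, 115, 119.8 and 135 CPM in the WT samples and 174, 167, 162 and 177 CPM in the miR-21 null samples. Its groups did not overlap, but its log2 fold change of 0.47 ± 0.06 (SE, n = 4 per group, adjusted p = 0.000406) was under the fold limit. Rescaling by the median of ratios moved this value to 0.58.

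Psme2 (chr14:55587441-55591114, minus strand) read 26.1, 23.9, 30.1 and 28.0 CPM in WT samples and 52.8, 50.4, 42.8 and 48.5 CPM in miR-21 null samples. Every miR-21 null sample was well above every WT sample. The log2 fold change of Psme2, 0.83 ± 0.09 (SE, n = 4 per group, adjusted p = 0.000120), was the highest of the 49 members tested. It corresponds to 1.77-fold.

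Thus 4 of 5 immunoproteasome genes passed the threshold of the study as higher, against 2.89% of all genes tested that did so and 4.23% that passed it as lower. At an adjusted p of at most 0.05 all 5 were higher, against 9.49% of all genes tested higher and 26.5% lower. The groups did not overlap for any of the 5, whereas 9.44% of all genes tested had all miR-21 null values above all WT values and 25.7% had them all below. These 5 had a median log2 fold change of 0.66, beside -0.10 for all genes tested.

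**Figure D1:**
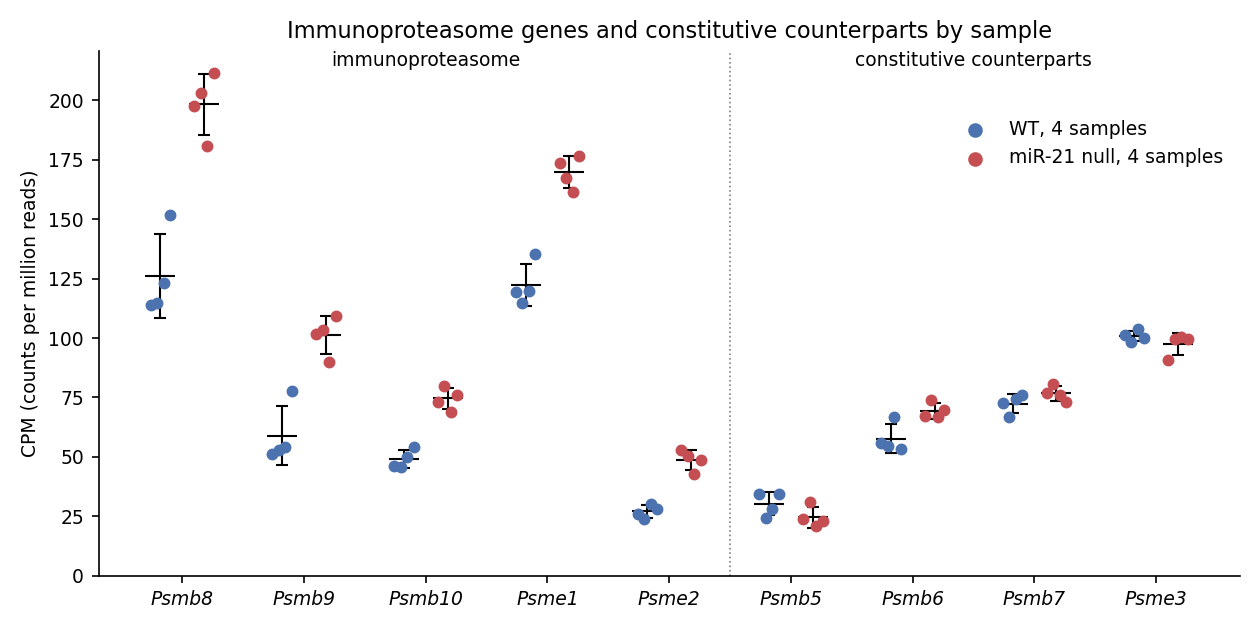
CPM of the 5 immunoproteasome genes and of 4 constitutive counterparts in each of 4 WT (blue) and 4 miR-21 null (red) samples, with the mean (bar) and SD (whiskers). The red points lie above all blue points for Psmb8, Psmb9, Psmb10, Psme1 and Psme2, and overlap the blue points for Psmb5, Psmb6, Psmb7 and Psme3.

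Psme2 has a close copy that the symbol rule also took. Psme2b (chr11:48945354-48946191, minus strand) has 1 exon in the GENCODE vM21 annotation, where the longest coding transcript of Psme2 has 11. Over 720 coding bases the sequences of Psme2 and Psme2b differ at 5 positions (99.3% identity). A stretch that holds all 5 is shown because the few differing bases, in capitals, are all that tells the coding sequences apart.

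Psme2: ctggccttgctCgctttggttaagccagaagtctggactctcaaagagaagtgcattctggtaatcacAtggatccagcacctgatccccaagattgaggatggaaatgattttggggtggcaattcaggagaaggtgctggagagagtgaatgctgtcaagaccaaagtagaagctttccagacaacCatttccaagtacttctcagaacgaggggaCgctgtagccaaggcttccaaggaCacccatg

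Psme2b: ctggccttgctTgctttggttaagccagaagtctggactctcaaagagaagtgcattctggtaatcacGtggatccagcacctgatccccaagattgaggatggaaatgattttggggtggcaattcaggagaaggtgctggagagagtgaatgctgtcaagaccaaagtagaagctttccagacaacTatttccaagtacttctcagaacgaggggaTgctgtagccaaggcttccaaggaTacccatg

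Of all stretches of 50 bases in the Psme2 transcript, 59.3% also occur in Psme2b or another annotated gene, and for Psme2b this share was 69.3%. Psme2b read 72.9, 73.3, 76.8 and 82.5 CPM in WT samples and 130.0, 124, 119 and 125 CPM in miR-21 null samples. Again no sample of either group reached into the other. Psme2b was the only member outside the 5 immunoproteasome genes past the threshold of the study, with a log2 fold change of 0.70 ± 0.06 (SE, n = 4 per group, adjusted p = 2.66e-05).

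Neither Psme2 nor Psme2b lay on whole multiples of 1 read in any of the 8 samples, so their reads were shared out in some way, and the level of each alone is uncertain. Their summed level was 97.2 to 110.5 CPM in the WT samples and 162 to 183 CPM in the miR-21 null samples, a log2 difference of 0.74 (exact permutation test, two-sided, p = 0.0286, n = 4 per group, the smallest value that 4 against 4 samples can give). Psme2b held 71.9% to 75.4% of this sum in WT and 71.1% to 73.5% in miR-21 null samples, so the division between the copies was much the same in both genotypes. Psme2b also lies within the annotated span of Gm12185, on the same strand, which read 3.75 ± 1.41 CPM in WT samples and 24.8 ± 2.99 CPM in miR-21 null samples (mean ± SD, n = 4). Another gene of this strand that overlaps Psme2b, 9930111J21Rik1, read 67.2 ± 4.31 CPM and 76.9 ± 6.70 CPM in these groups (log2 fold change 0.19, adjusted p = 0.0665). The part of these genes in the Psme2b value was not tested.

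**Figure D2:**
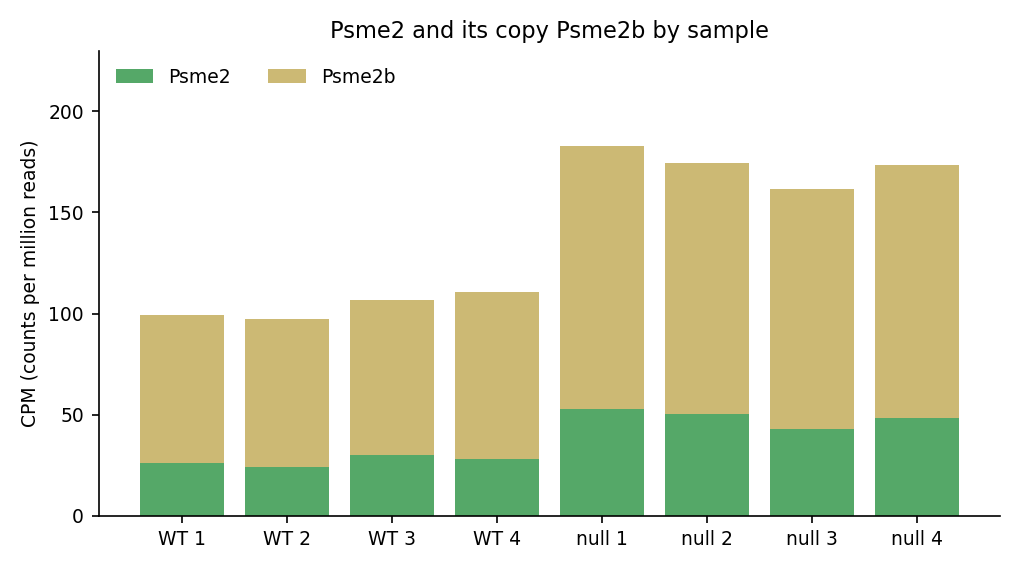
CPM of Psme2 (green) and Psme2b (yellow), stacked, in each WT and miR-21 null sample, replicates 1 to 4. The stacked total is 97.2 to 110.5 CPM in the WT samples and 162 to 183 CPM in the miR-21 null samples, with Psme2b making up 71.1% to 75.4% of it.

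The constitutive catalytic subunits differed less between genotypes than their inducible counterparts, and 1 of the 3, Psmb6, passed the looser limit. Psmb5, the β5 subunit with chymotrypsin-like activity, read 34.2, 24.3, 28.1 and 34.2 CPM in WT samples and 23.7, 31.0, 20.8 and 23.2 CPM in miR-21 null samples. The groups overlapped, and the log2 fold change of -0.28 ± 0.14 (SE, n = 4 per group, adjusted p = 0.128) did not pass the test. It was -0.40 with an adjusted p of 0.0375 without miR-21 null replicate 2, the highest miR-21 null sample. Of the stretches of 50 bases of Psmb5, 57.1% occur in other annotated genes, Gm3375 and Psmb5-ps among them.

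Psmb6, the β1 subunit, read 55.8, 54.5, 66.8 and 53.5 CPM in WT samples and 67.0, 73.8, 66.7 and 69.7 CPM in miR-21 null samples. WT replicate 3 lay just inside the miR-21 null range. The log2 fold change of Psmb6 was 0.27 ± 0.07 (SE, n = 4 per group, adjusted p = 0.0196), and the adjusted p rose to 0.0576 without WT replicate 2 and 0.0569 without miR-21 null replicate 2. Psmb7, the β2 subunit, read 66.7 to 75.8 CPM in WT samples and 73.0 to 80.6 CPM in miR-21 null samples, a log2 fold change of 0.08 ± 0.06 (SE, n = 4 per group, adjusted p = 0.265).

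To compare each inducible subunit with the subunit it replaces inside the same sample, the log2 ratio of the 2 values was formed. This ratio depends little on the scaling of a library, and the median of ratios moved no difference between genotypes by as much as 0.01. The 5 ratios were compared between genotypes with exact two-sided permutation tests over the samples, with p adjusted over the 5 pairs. Psme1 and Psme2 were both set against Psme3, the PA28γ activator, which is nuclear and not induced by IFN-γ.

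The ratio of Psmb8 to Psmb5 was 1.71, 2.19, 2.09 and 2.12 in WT and 3.01, 2.67, 3.06 and 3.14 in miR-21 null samples. The groups were separate, with a difference in mean log2 ratio of 0.94 (exact permutation test, n = 4 per group, p = 0.0286, adjusted p = 0.0357). The ratio itself was thus 1.92 times as high in miR-21 null TAMs.

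The ratio of Psmb10 to Psmb7 was -0.55 ± 0.07 in WT and -0.04 ± 0.08 in miR-21 null samples (mean ± SD, n = 4), a difference of 0.51 (exact permutation adjusted p = 0.0357). For Psmb9 to Psmb6 the ratio was 0.02 ± 0.36 in WT and 0.54 ± 0.10 in miR-21 null samples, a difference of 0.52 that did not pass the test (exact permutation p = 0.0857, adjusted p = 0.0857). WT replicate 4, at 0.53, lay inside the miR-21 null range of 0.43 to 0.64. Without this sample, the only one to overlap, the difference was 0.69 and the exact permutation p 0.0286, the smallest that separate groups of 4 and 3 can give, so the call turns on this sample.

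The ratios of the PA28 subunits also differed between genotypes. The log2 ratio of Psme1 to Psme3 was 0.20 to 0.43 in WT and 0.68 to 0.93 in miR-21 null samples, a difference of 0.52 (exact permutation adjusted p = 0.0357, n = 4 per group). That of Psme2 to Psme3 was -1.87 ± 0.11 in WT and -0.99 ± 0.18 in miR-21 null samples (mean ± SD), a difference of 0.87 (exact permutation adjusted p = 0.0357, n = 4 per group). With Psme2 and Psme2b summed the difference was 0.79. Psme3 itself read 98.5 to 104 CPM in WT samples and 90.8 to 100.5 CPM in miR-21 null samples, and its log2 fold change of -0.05 ± 0.05 (SE) turned to 0.06 when rescaled by the median of ratios, with an adjusted p of 0.477 and 0.333.

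**Figure D3:**
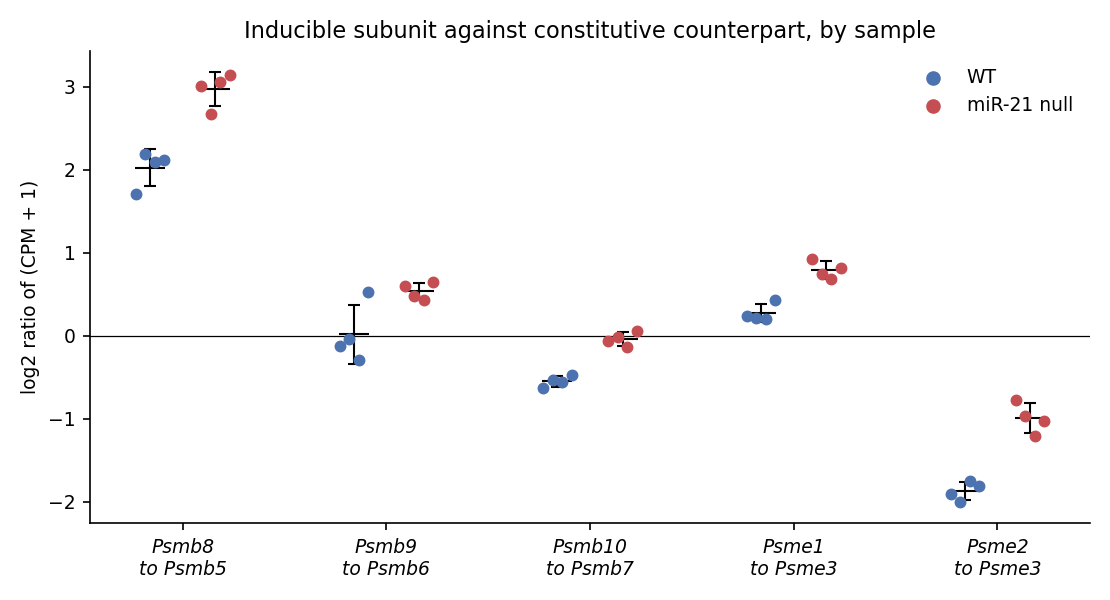
Log2 ratio of CPM + 1 between an inducible subunit and its constitutive counterpart in each of 4 WT (blue) and 4 miR-21 null (red) samples, with the mean (bar) and SD (whiskers). For 4 of the 5 pairs the genotypes do not overlap, and for Psmb9 to Psmb6 WT replicate 4 reaches the miR-21 null samples.

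Levels of different genes were compared per kilobase of the longest annotated coding transcript. On this scale Psmb8 was the most abundant catalytic subunit in both genotypes, at 77.3 ± 10.9 CPM per kb in WT and 122 ± 7.90 in miR-21 null samples (mean ± SD, n = 4). Psmb6 followed in WT with 72.3 ± 7.72, a value that lies within the spread of Psmb8, then Psmb7 with 62.3 ± 3.43, Psmb9 with 43.6 ± 9.20, Psmb10 with 37.5 ± 2.99 and Psmb5 with 33.6 ± 5.40. In this order Psmb9 and Psmb10 did not differ beyond their spread, nor did Psmb10 and Psmb5.

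The 3 inducible catalytic subunits together made 45.6%, 48.6%, 46.3% and 53.0% of the summed level per kilobase of the 6 catalytic subunits in WT replicates 1 to 4. In the miR-21 null samples they made 58.9%, 57.2%, 57.2% and 60.4%. The inducible share was above that of every WT sample in all 4 miR-21 null samples. The summed level of the constitutive catalytic subunits was 153 to 179 CPM per kb in WT and 172 to 196 CPM per kb in miR-21 null samples, which overlap.

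The α subunits form the outer rings of the core, which gate the entry of substrate and are shared by both forms of the proteasome. All 7 had a log2 fold change above 0, with a median of 0.24, and 5 of the 7 were higher at an adjusted p of at most 0.05, beside 9.49% of all genes tested. Without WT replicate 2, or without miR-21 null replicate 2, this count was 2 (Psma3 and Psma4), and without miR-21 null replicate 4 it was 3. No α subunit passed the threshold of the study. Psma4 read 79.9, 71.2, 80.2 and 86.9 CPM in WT samples and 97.7, 111, 99.1 and 113 CPM in miR-21 null samples. Its groups were separate and its log2 fold change of 0.40 ± 0.07 (SE, n = 4 per group, adjusted p = 0.00260) was the highest of the 31 constitutive subunits.

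Psma3 read 27.4 to 35.3 CPM in WT samples and 37.2 to 41.0 CPM in miR-21 null samples, a log2 fold change of 0.32 ± 0.08 (SE, adjusted p = 0.00963). Psma5, Psma6 and Psma2 followed with 0.28, 0.24 and 0.21 (adjusted p = 0.0451, 0.0199 and 0.0192). Psma7 was the lowest of the α subunits with 0.09 ± 0.05 (SE, adjusted p = 0.197), and its values of 84.6 to 91.9 CPM in WT samples and 89.0 to 96.4 CPM in miR-21 null samples overlapped. Stretches of 50 bases found in other genes made up 31.5% of Psma4 and 55.4% of Psma5, but none of Psma6.

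The non-catalytic β subunits, structural members of the inner rings, gave a median log2 fold change of 0.02. None of the 4 passed the looser limit, beside 9.49% of all genes tested higher and 26.5% lower. Psmb2 was the highest with 0.16 ± 0.06 (SE, adjusted p = 0.0716) and Psmb3 the lowest with -0.03 ± 0.08 (SE, adjusted p = 0.820). Psmb2 passed the looser limit with quantile normalization (adjusted p = 0.0221) and the median of ratios (adjusted p = 0.00903). The sign of Psmb3 turned under the median of ratios (0.08).

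The 19S ATPases form the ring that unfolds substrates, and the other 19S subunits make up its base and lid. Of the 6 ATPases none passed the looser limit, beside 9.49% of all genes tested higher and 26.5% lower. Their log2 fold changes ran from -0.04 ± 0.06 for Psmc1 (adjusted p = 0.631) to 0.13 ± 0.05 for Psmc2 (adjusted p = 0.0535). Under the median of ratios Psmc1 turned to 0.07, and Psmc2, Psmc3, Psmc4 and Psmc6 passed the looser limit as higher (adjusted p = 0.00412 to 0.0334). Of the 11 non-ATPase subunits 1 passed the looser limit as higher, near the 9.49% of all genes tested that did so. This was Psmd1, a large scaffold subunit of the base, which read 119.6, 115, 122 and 119 CPM in the WT samples and 125, 138, 132 and 137 CPM in the miR-21 null samples, with a log2 fold change of 0.16 ± 0.05 (SE, n = 4 per group, adjusted p = 0.0291). Its adjusted p rose to between 0.0514 and 0.0829 when WT replicate 1, WT replicate 2, miR-21 null replicate 2, miR-21 null replicate 3 or miR-21 null replicate 4 was left out. Psmd6 was the lowest with -0.01 ± 0.06 (SE, adjusted p = 0.923), and turned to 0.10 under the median of ratios. With that scaling Psmd1, Psmd2, Psmd3, Psmd7, Psmd11, Psmd12, Psmd13 and Psmd14 passed the looser limit as higher, where 15.6% of all genes tested did.

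Over the 31 constitutive subunits, 7 were higher at an adjusted p of at most 0.05 and none was lower, where 9.49% of all genes tested were higher and 26.5% lower. The 7 were Psma2, Psma3, Psma4, Psma5, Psma6, Psmb6 and Psmd1. The groups did not overlap for 7 of the 31, all in the higher direction, beside 9.44% of all genes tested. Their median log2 fold change was 0.10. The log2 fold changes ran from -0.28 (Psmb5) to 0.40 (Psma4), so that the lowest immunoproteasome gene, Psme1 with 0.47, lay above the highest constitutive subunit.

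The count depends on the scaling of the libraries. The median log2 fold change of all genes tested moved from -0.10 to -0.0030 with the median of ratios, and that of the constitutive subunits moved from 0.10 to 0.21. With this scaling 22 of the 31 constitutive subunits were higher at an adjusted p of at most 0.05, where 15.6% of all genes tested were, and with quantile normalization 13 were, where 13.7% of all genes tested were. Counted over all 44 members tested outside the immunoproteasome, 8 were higher as deposited, and 3 without WT replicate 2, 3 without miR-21 null replicate 2 and 5 without miR-21 null replicate 4. Psma3, Psma4 and Psme2b were among those higher in each of these counts.

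**Figure D4:**
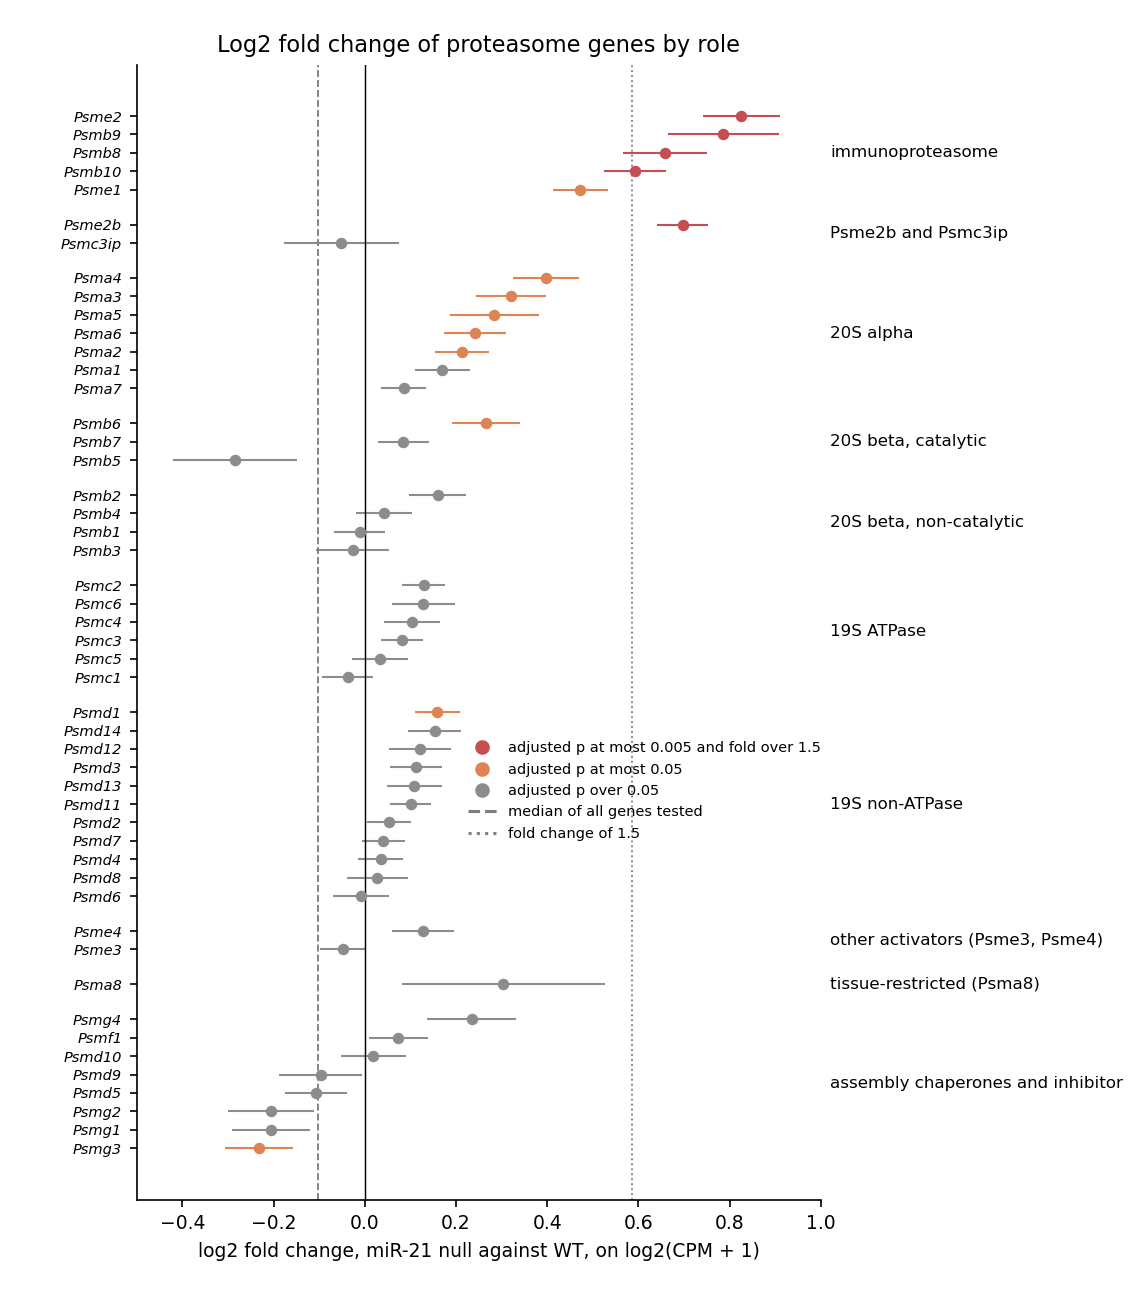
Log2 fold change of miR-21 null against WT for the 49 members tested, grouped by role, with the SE (whiskers). Red points passed the threshold of the study and orange points an adjusted p of at most 0.05, the dashed line is the median of all genes tested (-0.10) and the dotted line a fold change of 1.5. The 5 immunoproteasome genes lie from 0.47 to 0.83, above all constitutive subunits.

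The 8 genes that assemble or restrain the proteasome had a median log2 fold change of -0.10, beside -0.10 for all genes tested. Psmg1, Psmg2, Psmg3 and Psmg4 encode PAC1 to PAC4, which build the α ring. Psmg3 read 7.15, 7.17, 7.67 and 7.69 CPM in WT samples and 5.90, 6.33, 6.14 and 6.31 CPM in miR-21 null samples. The groups were separate, with a log2 fold change of -0.23 ± 0.07 (SE, n = 4 per group, adjusted p = 0.0330).

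Psmg3 was the only member lower at the looser limit, beside 26.5% of all genes tested, and it kept this call in 1 of the 8 fits that left out a sample, that without WT replicate 1. In the other 7 fits its adjusted p was 0.0572 to 0.0710, and with the median of ratios its log2 fold change was -0.13 with an adjusted p of 0.179. Psmg1 and Psmg2 had log2 fold changes of -0.21 and -0.21 (adjusted p = 0.0836 and 0.114). Psmg4, the highest of the 8, had 0.23 ± 0.10 (SE, adjusted p = 0.0851), with at most 5.93 CPM in WT samples and 5.99 to 6.63 CPM in miR-21 null samples. Psmd5, Psmd9 and Psmd10, chaperones of the 19S base, and the inhibitor Psmf1 (PI31) ranged from -0.11 to 0.07, none past the looser limit.

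Of the remaining members none passed the looser limit on the values as deposited. Psme4 (PA200, an activator linked to histone degradation) had a log2 fold change of 0.13 ± 0.07 (SE, adjusted p = 0.165), and 0.24 with the median of ratios (adjusted p = 0.0213). Psma8, the α subunit of testis, read 0.637 to 1.73 CPM in WT samples and 0.690 to 2.30 CPM in miR-21 null samples, with a log2 fold change of 0.30 ± 0.22 (SE, adjusted p = 0.313). Psmb11, the catalytic subunit of thymic cortical epithelium, was listed at 0.0001 CPM in 3 of 4 WT and 2 of 4 miR-21 null samples and reached 0.115 CPM at most, so it was not tested. Psmc3ip, which is a recombination factor and not a subunit, had a log2 fold change of -0.05 ± 0.13 (SE, adjusted p = 0.776).

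Genes that work with the proteasome were read from lists of 33 genes in the table, all of them tested. Of the 33, 3 were higher and 8 lower at an adjusted p of at most 0.05, shares near the 9.49% and 26.5% of all genes tested, and their median log2 fold change was -0.04. With the median of ratios 8 were higher and 3 lower, where 15.6% of all genes tested were higher and 14.7% lower. Pomp, the chaperone that matures the core and is needed for immunoproteasome assembly, read 80.9 to 96.2 CPM in the WT samples and 108 to 121 CPM in the miR-21 null samples, a log2 fold change of 0.36 ± 0.06 (SE, n = 4 per group, adjusted p = 0.00238). The subunits without a Psm symbol, Adrm1 and Sem1, had 0.13 and 0.03 (adjusted p = 0.125 and 0.665). None of the 3 genes that control transcription of the subunits, Nfe2l1, Nfe2l2 and Ngly1, passed the looser limit, with log2 fold changes of -0.01, -0.10 and -0.15 (adjusted p = 0.870, 0.437 and 0.156).

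Peptidases that act on proteasome products went both ways. Lap3, a leucine aminopeptidase, was the only gene of these lists past the threshold of the study, with a log2 fold change of 0.59 ± 0.11 (SE, n = 4 per group, adjusted p = 0.00251) and 49.9 to 61.0 CPM in WT against 71.5 to 104 CPM in miR-21 null samples. Erap1, which trims peptides for MHC class I in the endoplasmic reticulum, had 0.31 ± 0.05 (SE, adjusted p = 0.000757). Npepps was the lowest of this list with -0.29 ± 0.06 (SE, adjusted p = 0.00589), and Blmh and Thop1 were also lower. With the median of ratios Npepps, Blmh and Thop1 had -0.18, -0.16 and -0.10 (adjusted p = 0.0454, 0.120 and 0.256). Lap3 and Erap1 had 0.70 and 0.43 with this scaling (adjusted p = 0.000801 and 0.000124). In the list of ubiquitin genes and receptors 4 of 13 were lower, near the 26.5% of all genes tested, and none higher (2 lower and 3 higher with the median of ratios), with Rps27a, a fusion of ubiquitin and a ribosomal protein, the lowest at -0.52 ± 0.06 (SE, adjusted p = 0.000337) and Ubb the highest at 0.14 ± 0.07 (SE, adjusted p = 0.159).

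The immunoproteasome genes moved in the same direction as regulators and neighbours of the interferon pathway. All 8 genes of this list that are reported here were higher at an adjusted p of at most 0.05, beside 9.49% of all genes tested. Of these, 5 passed the threshold of the study, beside 2.89%. Irf1, a transcription factor known to drive Psmb8 and Psmb9, read 103 to 144 CPM in the WT samples and 327 to 447 CPM in the miR-21 null samples, a log2 fold change of 1.63 ± 0.12 (SE, n = 4 per group, adjusted p = 1.61e-05). Nlrc5, a transactivator of MHC class I genes, had 0.96 (adjusted p = 0.000104). The peptide transporter and its partner, Tap1, Tap2 and Tapbp, had 0.92, 0.74 and 0.93 (adjusted p = 0.000288, 0.000247 and 3.62e-06). Irf2 was the lowest with 0.34 ± 0.07 (SE, adjusted p = 0.00652).

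WT replicate 4, the highest WT sample for Psmb8, Psmb9, Psmb10 and Psme1, was also the highest WT sample for Tap1, with 212 CPM against 144 to 165 CPM in the other WT samples.

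**Figure D5:**
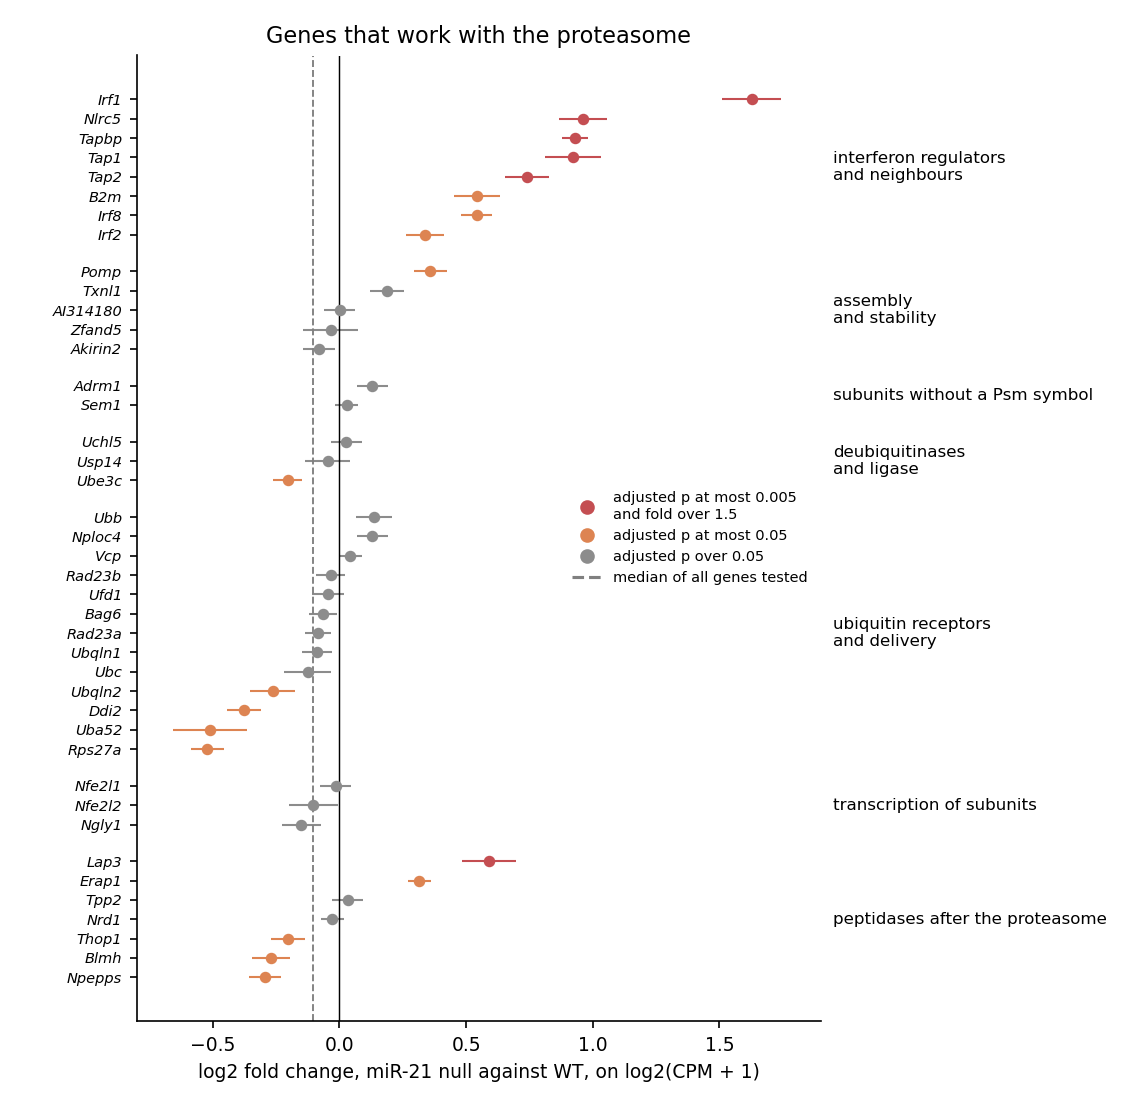
Log2 fold change of miR-21 null against WT, with the SE (whiskers), for genes of the interferon pathway and genes that work with the proteasome, grouped by list. Red points passed the threshold of the study and orange points an adjusted p of at most 0.05, and the dashed line is the median of all genes tested (-0.10). All 8 interferon genes shown lie above 0.3, and Pomp, Lap3 and Erap1 stand above the rest of their lists.

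Psmb8, Psmb9, Tap1 and Tap2 are neighbours in the MHC region of chromosome 17. Psmb9 and Tap1 are transcribed away from each other, with starts 226 bases apart in RefSeq (GRCm38.p6), and their annotated transcripts overlap, so that 12.5% of the stretches of 50 bases of Psmb9 also occur in Tap1. The reads of Psmb9 were not whole in any of the 8 samples, and the division of reads between Psmb9 and Tap1 was not tested. Nor were the reads of Psmb8, Psme1, Psmb6 and Psmb7 whole in any sample, while those of Psmb10 were whole in all 8. Psmb8 overlaps the antisense gene Gm20496 on 5.83% of its stretches. Of the stretches of Psme1, 14.1% also occur in other annotated genes.

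RefSeq (GRCm38.p6) gave promoters for 42 of the 50 members, and the 250 bases before each start were searched on both strands for 3 motifs. These were the γ-activated site TTCNNNGAA, the core of the antioxidant response element TGACNNNGC, bound by NFE2L1 and NFE2L2, and the interferon element given as GAAA followed, after any 2 bases, by a second GAAA. Of 32851 promoters of the same length 7.02%, 10.2% and 2.98% held them. In GENCODE vM21 these windows are in part annotated UTR, for all 250 bases in Psmb8 and Psmb9, 139 in Psme1, 92 in a window of Psme2 and 52 in Psmb10, so they are not all sequence upstream of the gene. Among the 5 immunoproteasome genes 1 held a γ-activated site and none held either of the other motifs. Among the 25 constitutive subunits with a promoter, 4 held the antioxidant element, 2 the interferon element and none the γ-activated site.

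The stretch shown for Psmb8 is chr17:34198088-34198117, plus strand, and its match lies 97 to 89 bases before the RefSeq start, and inside the gene as the expression table places it, since that span begins upstream at base 34197721. The stretch shown for Psmb5 is chr14:54618023-54618052, minus strand, and its match, an antioxidant element, lies 47 to 39 bases before the RefSeq start. They are shown, with the match in capitals, because these genes form 1 of the catalytic pairs compared and each holds a match. A match is a description of letters and not a bound site.

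Psmb8: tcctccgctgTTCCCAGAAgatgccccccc

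Psmb5: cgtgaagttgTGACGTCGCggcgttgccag

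Markers of T, NK and dendritic cells, which could enter the sort, had low summed levels beside the macrophage markers. The 9 T cell markers summed to 22.5 to 43.0 CPM in WT samples and 10.2 to 42.3 CPM in miR-21 null samples, the 7 NK cell markers to 5.20 to 12.9 and 8.99 to 22.5 CPM, and the 8 dendritic cell markers to 16.2 to 28.0 and 20.8 to 45.9 CPM. Members of these lists went both ways. Cd8a, Klrd1, Prf1 and Clec9a were higher in miR-21 null samples, with log2 fold changes of 1.28, 0.51, 1.16 and 1.26 (adjusted p = 0.00804, 0.0396, 0.0261 and 0.00532), while Cd4, Cd5 and Cd209a of the same T cell and dendritic cell lists were lower, with -2.35, -0.53 and -1.28 (adjusted p = 0.00206, 0.0378 and 0.0187).

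Neutrophil markers summed to 822 to 1236 CPM in the WT samples and 607 to 789 CPM in the miR-21 null samples, B cell markers to 11.4 to 17.6 and 3.84 to 11.3 CPM, stromal markers to 219 to 394 and 199.8 to 287.5 CPM, and epithelial markers to 18.8 to 24.8 and 12.7 to 17.9 CPM. Of these lists 6 of 7 neutrophil, 4 of 6 stromal, 1 of 1 B cell and 1 of 3 epithelial markers that were tested were lower at an adjusted p of at most 0.05, beside 26.5% of all genes tested, and none was higher. With the median of ratios 2 neutrophil, 4 stromal, 1 B cell and 0 epithelial markers were lower, beside 14.7% of all genes tested. No marker of any list was at 0.0001 CPM in all samples. The part of these cells in the values of the proteasome genes was not tested.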

How the data were processed

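TAMs of 4 WT and 4 miR-21 null samples were profiled by RNA-Seq. Per the labels, mRNA libraries were made with a Kapa mRNA Hyper prep kit and processed by the authors with STAR and Partek 7.0 on mm10; counting rule and strand are not given in the sources used here. The deposited values are CPM raised by 0.0001. The coordinates are those of GRCm38 (97.1% of the starts in GENCODE vM21). All 37 mitochondrial genes were at 0.0001. Column totals were 788099 to 807758 CPM. Of the values up to 20 reads, 76.4% to 77.2% were within 0.05 of whole reads, so counts were not recovered and no count test was run.

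The limma package (3.58.1, R 4.3.3) was applied to log2(CPM + 1) by lmFit and by eBayes with a trend, without a block, and p was adjusted by Benjamini-Hochberg. Low genes were dropped first: 13850 of 53247 had means reaching 1 when columns were scaled to 1e+06. Fold changes on this scale understate those of low genes. Ratios of pairs were compared with exact two-sided permutation tests over the 70 arrangements of 8 samples. The fit was tested on simulated data. Precision is limited by 4 samples per group, and p-values measure the spread between these samples. Levels per kb used GENCODE vM21 lengths. Sequences are from GENCODE vM21 transcripts and RefSeq promoters. Figures were drawn with matplotlib 3.10.9.

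The members, roles and lists were chosen with earlier results of these data known. Named are the immunoproteasome genes and their counterparts, members past the threshold of the study, the highest and lowest of each role or list, untested members, and markers at 1 CPM or more. Any other gene named, such as Gm12185, Erap1, Blmh or Thop1, was chosen after its values were seen. The analysis was repeated with pseudocounts of 0.1 and 10, the filter absent or set at 5, quantile normalization, median of ratios, eBayes without the trend, arrayWeights, a replicate block, other limits and each sample left out in turn. Summing Psme2 and Psme2b, and rescaled ratios, were added after seeing the data. For 1 gene of the interferon list the result is not reported here, and the counts of that list are without it.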

Additional observations from a re-analysis of the deposited data

Results flagged for a closer look

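Within each group of 4 samples, the highest and the lowest value of each of the 49 members tested were compared with the other 3 on log2(CPM + 1) by Dixon's ratio of the gap to the range at its 95% critical value. Of 98 groups 3 passed, where chance would give about 1 in 20, or 4.9.

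Psmb9 in WT replicate 4 stood at 77.5 CPM, above the 51.0 to 54.3 CPM of the other WT samples and toward the miR-21 null samples. Psmb3 in miR-21 null replicate 3 stood at 32.4 CPM, under the 38.6 to 39.4 CPM of the other miR-21 null samples. Psme3 in miR-21 null replicate 1 stood at 90.8 CPM, under the 99.5 to 100.5 CPM of the others.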

How the results depend on the processing

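At the study threshold 3 or 4 immunoproteasome genes were called under each alternative, 3 with a pseudocount of 10 (without Psmb10) and 3 with no filter (without Psmb9). Without its fold limit all 5 passed, and all 5 were higher at an adjusted p of at most 0.05 in each fit. Leaving out 1 sample at a time gave 3 to 4 at the study threshold. With an adjusted p of at most 0.005 and no fold limit, 2 other members passed in place of 1. The number of other members higher at an adjusted p of at most 0.05, 8 as deposited, was 15 with quantile normalization and 25 with the median of ratios, and 3 to 11 when 1 sample was left out. The number lower, 1 as deposited, was 0 with quantile normalization, the median of ratios or the replicate block, and 0 to 1 when 1 sample was left out. With the median of ratios the log2 fold changes rise together: the median of all genes tested moved from -0.10 to -0.0030. Why the scalings differ was not tested.

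The pair ratios kept their sign in every alternative. Leaving out 1 sample gave 0.84 to 1.04 for Psmb8 to Psmb5, 0.42 to 0.69 for Psmb9 to Psmb6, 0.47 to 0.54 for Psmb10 to Psmb7, 0.48 to 0.57 for Psme1 to Psme3 and 0.80 to 0.95 for Psme2 to Psme3. The replicate numbers were taken from the sample descriptions (the numbers in the titles differ for miR-21 null samples). The correlations of the deviations were 0.08, -0.11, -0.14 and 0.22 for same-numbered samples and -0.20 to 0.14 for the others. Pairing by number was not seen, but so few values cannot exclude it. With the numbers taken as a replicate block, which by construction keeps the mean differences (0.94 for Psmb8 to Psmb5, 0.51 for Psmb10 to Psmb7, 0.52 for Psme1 to Psme3 and 0.87 for Psme2 to Psme3), 4 pairs cannot give an exact sign-flip p under 0.125.

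Of 373 values of 22 single genes, 327 kept direction and call, 20 lost the call, 15 gained it and 11 changed sign. Those that changed sign were Psme3 (0.063 with the median of ratios), Psmb3 (0.054 with quantile normalization and 0.083 with the median of ratios, -0.065 to 0.037 when 1 sample was left out), Psmc1 (0.016 and 0.074 with these scalings) and Psmd6 (0.054 and 0.10 with these scalings, -0.048 to 0.028 when 1 sample was left out). The samples whose removal turned the sign were WT replicate 4 and miR-21 null replicate 3 for Psmb3, and WT replicate 3 and miR-21 null replicate 3 for Psmd6. The edgeR test planned for recovered counts was not run. Depth limits most the members with few reads, such as Psmb11, Psma8 and Psmc3ip.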
